A study of Mus musculus with 22 samples.

Results

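The transmitter receptor genes described here encode the subunits of the ionotropic and metabotropic glutamate receptors, the GABA-A and GABA-rho receptors, the glycine receptor and the nicotinic acetylcholine receptors. They were chosen by name alone, as every gene typed as mRNA in the count table whose symbol belongs to one of these families, which gave 66 of 44792 genes. By family there were 4 AMPA, 7 NMDA-type, 5 kainate, 2 delta and 8 metabotropic glutamate receptor genes, 16 GABA-A and 3 GABA-rho genes, 5 glycine receptor genes, and 11 neuronal and 5 muscle-type nicotinic genes.

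Ionotropic receptors are channels built from several subunits that open when a transmitter binds, and the subunit mix sets which ions pass and how fast the channel closes. Glutamate and acetylcholine receptors of this kind excite a cell, whereas GABA-A, GABA-rho and glycine receptors usually pass chloride and quiet mature neurons. In the retina these receptors are best known from neurons. Müller glia, the radial support cells of the retina, take up and recycle the transmitters and also carry receptors for some of them.

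All mice were C57BL/6. Müller cells were isolated by flow cytometry from animals carrying the Rlbp1-GFP reporter, which marks cells that use the promoter of a retinoid carrier gene of Müller glia. NMDA cells came from mice of 2 to 3 months that had received an injection of NMDA into the eye 2 days earlier, NMDA being a glutamate receptor agonist that kills retinal neurons. Retinal progenitor cells (RPCs), the dividing cells that build the retina, came from embryos of day 12.5, and the labels name no sort for them. Aged Müller cells came from mice of 1.5 years, and young Müller cells, which had no injection, from mice of 2 to 3 months. RNA was sequenced from 3 NMDA, 3 RPC, 2 aged and 2 young libraries, and DNA methylation was read by reduced representation bisulfite sequencing (RRBS), which covers CpG-rich fragments, in 3 libraries of each group. The RPC group differs from every Müller group in cell type, age and isolation at once, and the NMDA group differs from the aged group in both injection and age, so within each of these pairs the factors cannot be told apart.

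RNA libraries held 15867733 to 17968517 counts in NMDA cells, 11067405 to 14520423 in RPCs, 33213893 and 36486072 in aged cells, and 10149390 and 15202738 in young cells. Levels are counts scaled to a common library total (CPM), which are not scaled to transcript length and so are compared between groups for 1 gene or family and not between genes. The summed level of 12 Müller glia markers was 20200 to 26200 CPM in NMDA cells, 2340 to 2380 in RPCs, 50000 and 50500 in aged cells, and 52200 and 62100 in young cells. Most of the lower sum in NMDA cells came from 1 marker, Glul. It had 4530, 2610 and 4590 CPM there, against 25200 and 26400 in aged and 33700 and 26700 in young cells. Of the 12, 2 were higher and 3 lower in NMDA than in young cells, and 2 were higher and 5 lower than in aged cells. The summed level of 12 early retinal neuron markers was 152 to 219 CPM in NMDA cells, 1610 to 2630 in RPCs, 62.9 and 63.3 in aged cells, and 60.3 and 89.9 in young cells, so that the RPC libraries were highest for them. In bulk RNA, fewer cells of a type and less RNA per cell cannot be told apart.

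The young libraries set a limit on every comparison that uses them. Of the 66 receptor genes, 59, 59 and 61 had a count in the NMDA libraries, 50 to 54 in the RPC libraries, 56 and 57 in the aged libraries, and 26 in each young library. Each young library thus had 40 receptor genes at 0, and 33 genes were at 0 in both, among them 18 that had a count in every NMDA and every aged library. Fewer genes were detected in young libraries over the whole table too. Of all 44792 genes, 22445 to 23618 had a count in NMDA libraries and 21863 to 22453 in RPC libraries. The numbers were 20920 and 21445 in aged libraries, and 13913 and 14919 in young libraries. Across all genes, those with under 10 counts made up 23.2% to 29.0% of detected genes in NMDA libraries, 28.7% to 29.5% in RPC, 14.3% and 15.6% in aged, and 6.35% and 5.52% in young libraries. Log2 CPM values correlated across genes at Pearson r 0.827 between the young libraries, against 0.954 to 0.989 for pairs within the other groups. Contrasts that do not set a group against young cells are therefore given first. The young libraries still enter the filter and the estimate of spread behind them, with a common biological coefficient of variation of 0.411 in the fit to all 10 libraries and 0.231 in a fit without the young ones, whose counts are given as well.

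**Figure D1:**
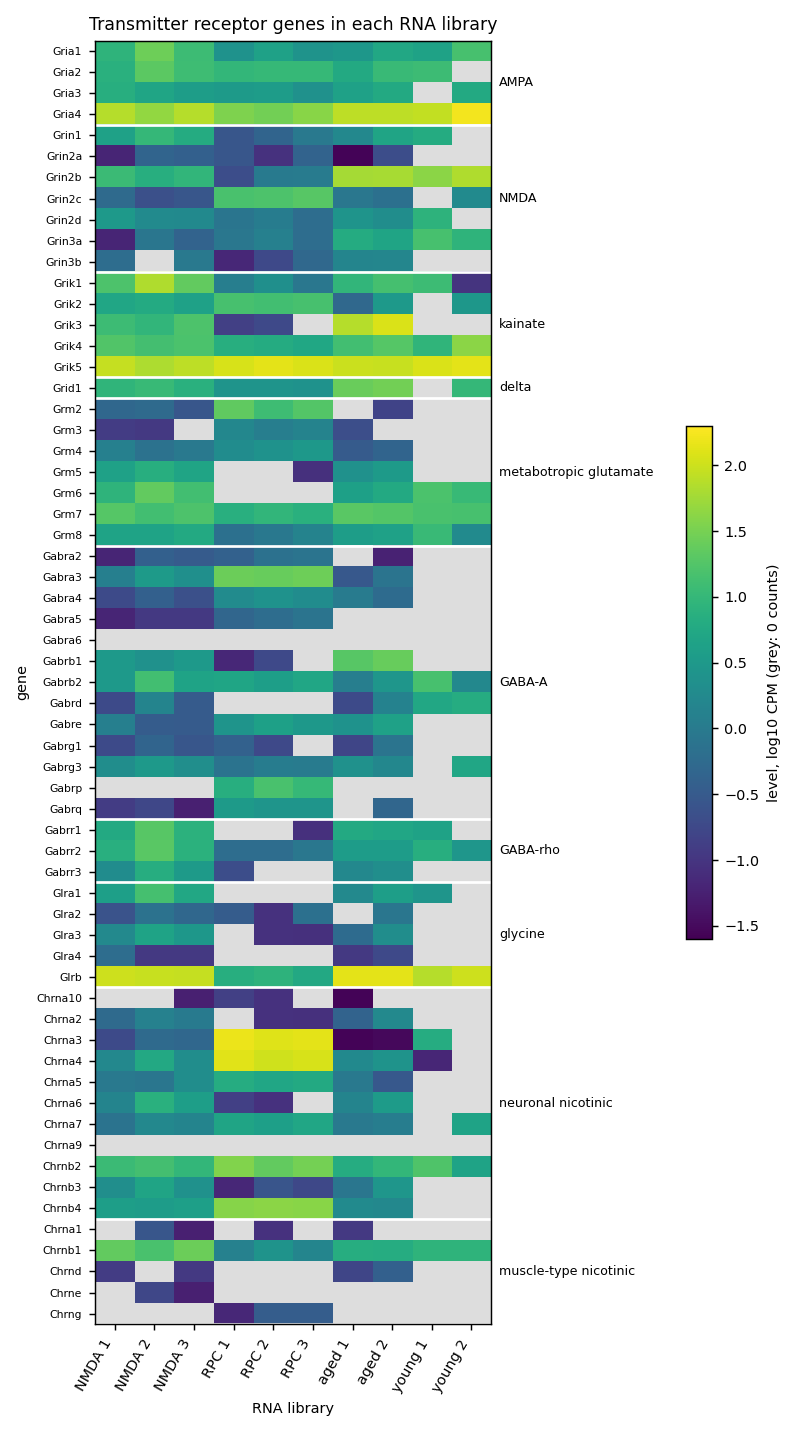
Level of 61 receptor genes (rows, by family) in each RNA library (columns), as log10 CPM, with grey for 0 counts. The columns of young replicates 1 and 2 are grey for 38 and 39 of them, and the RPC columns are bright for neuronal nicotinic genes such as Chrna3 and Chrna4.

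To show the sequence context of genes on which the RNA and methylation results turn, the 250 bases before the start given in RefSeq (build GRCm38.p6) are printed for 5 of them, in lower case with CpG dinucleotides, the sites that RRBS reads, in capitals. For Grik3, Grin3b and Grm6 this stretch lies inside the span that the gene table of the same build gives. Grik3 (chr4:125490446-125490695, plus strand) and Gabrb1 (chr5:71657671-71657920, plus strand) had at most 4 counts over the RPC libraries and none in young cells. Chrna3 (chr9:55026563-55026812, minus strand) was highest in RPCs. Grin3b (chr10:79970474-79970723, plus strand) held a run of CpGs that was methylated in RPCs, which lies outside the printed bases at chr10:79972961-79973179. Grm6 (chr11:50850435-50850684, plus strand) had the most methylated start of the receptor genes measured.
Grik3: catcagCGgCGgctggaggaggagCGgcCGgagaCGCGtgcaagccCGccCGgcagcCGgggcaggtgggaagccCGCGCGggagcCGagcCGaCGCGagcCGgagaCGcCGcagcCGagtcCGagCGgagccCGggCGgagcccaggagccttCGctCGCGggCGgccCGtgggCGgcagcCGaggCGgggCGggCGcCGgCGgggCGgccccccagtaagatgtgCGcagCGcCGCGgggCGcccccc
Gabrb1: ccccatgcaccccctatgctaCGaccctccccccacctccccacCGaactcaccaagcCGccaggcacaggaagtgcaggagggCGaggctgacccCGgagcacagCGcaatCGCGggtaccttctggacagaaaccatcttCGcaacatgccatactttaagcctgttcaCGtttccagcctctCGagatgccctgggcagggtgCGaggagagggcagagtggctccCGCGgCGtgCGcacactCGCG
Chrna3: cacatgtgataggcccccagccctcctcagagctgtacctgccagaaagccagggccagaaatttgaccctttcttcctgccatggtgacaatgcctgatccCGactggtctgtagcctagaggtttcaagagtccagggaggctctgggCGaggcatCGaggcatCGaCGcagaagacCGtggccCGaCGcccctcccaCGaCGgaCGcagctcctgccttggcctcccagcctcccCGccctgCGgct
Grin3b: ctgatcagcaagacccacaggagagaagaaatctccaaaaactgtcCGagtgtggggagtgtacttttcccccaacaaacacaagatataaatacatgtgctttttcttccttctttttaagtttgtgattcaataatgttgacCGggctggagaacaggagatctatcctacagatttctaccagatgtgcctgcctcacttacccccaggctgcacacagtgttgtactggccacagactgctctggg
Grm6: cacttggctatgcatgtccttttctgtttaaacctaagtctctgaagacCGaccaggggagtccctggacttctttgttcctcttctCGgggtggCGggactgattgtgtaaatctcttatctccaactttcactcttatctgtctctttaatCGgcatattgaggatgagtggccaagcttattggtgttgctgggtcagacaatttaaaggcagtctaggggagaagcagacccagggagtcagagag

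These stretches hold 42 CpGs in Grik3, 18 in Gabrb1, 13 in Chrna3, 2 in Grin3b and 4 in Grm6. Over all 32851 promoters of the table the median was 6, the quartiles were 2 and 16, and 92.1% held at least 1 CG, a motif that reads the same on both strands. Of the receptor genes, 46 had a row in that table.

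RPCs differed from aged Müller cells in most receptor families. With edgeR's quasi-likelihood test fitted to all 10 libraries and an adjusted p under 0.05 over all genes tested, 11 of the 55 receptor genes that passed the expression filter were higher in RPCs, 26 were lower and 18 did not pass. Over all 18931 genes tested, 55.4% were called, 26.3% higher and 29.0% lower, so that the receptor share called (67.3%) lay above the background and on the lower side. With members whose span contains another gene left out, as many receptor genes were called higher as lower. The median log2 change was -1.58 over the receptor genes and 0.02 over all genes. Without both young libraries, a fit made after seeing the data, 16 of 56 were higher and 31 lower, where 72.2% of all genes were called, 36.3% higher and 35.9% lower. Genes that entered the fit through the group where they are high had to differ, so these counts describe the families and are not tested.

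**Figure D2:**
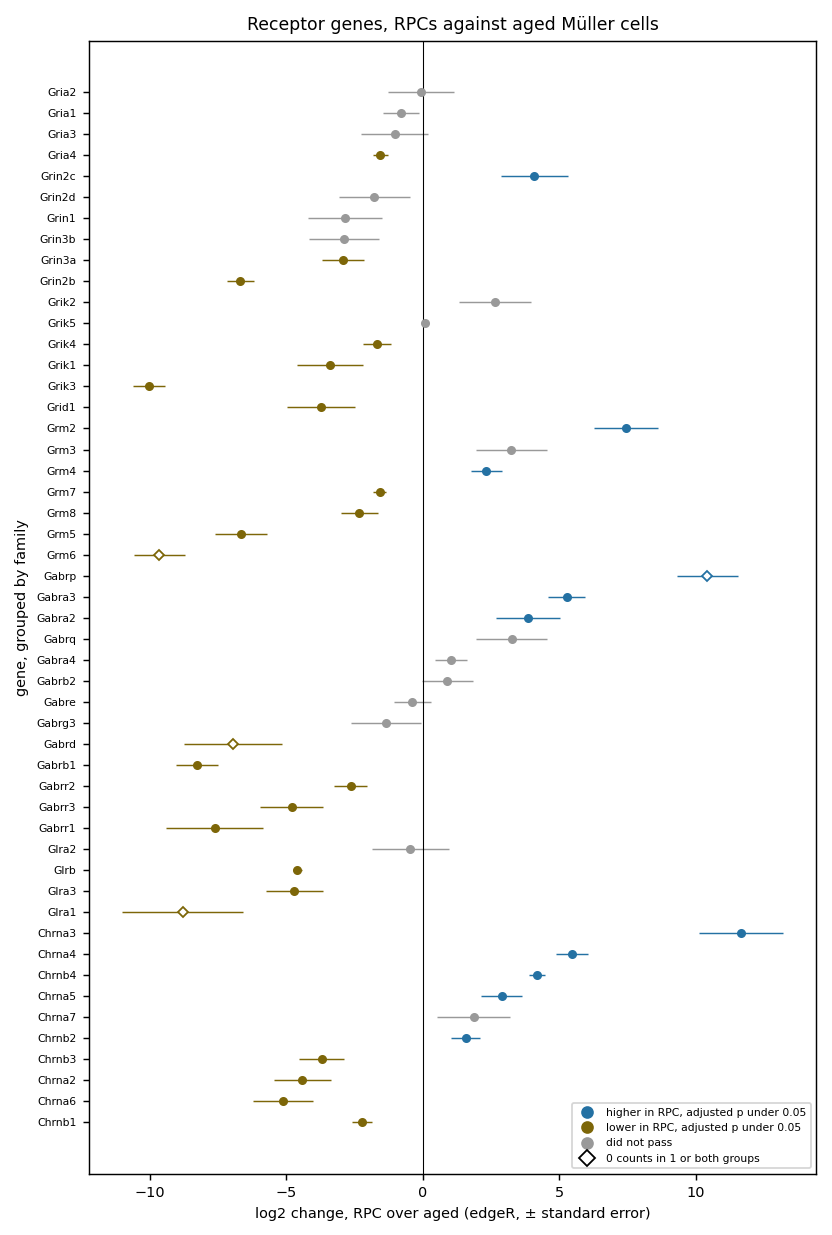
Log2 change of 50 tested receptor genes in RPCs over aged Müller cells, with standard errors, grouped by family (edgeR, 3 RPC and 2 aged libraries). Open diamonds mark genes with 0 counts in a whole group, whose fitted change is no measured fold. All 3 GABA-rho and 3 of 4 glycine receptor genes were lower in RPCs, and 5 of 9 neuronal nicotinic genes were higher.

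Of the 6 tested NMDA-type receptor genes, 1 was higher in RPCs and 2 were lower. Grin2b (chr6:135713221-136173615), which encodes a glutamate-binding subunit prominent in the developing brain, had 0.207, 0.994 and 1.05 CPM in RPCs against 58.9 and 61.0 CPM in aged cells. The RPC libraries all lay far below the aged ones, a log2 change of -6.68 ± 0.50 (standard error, adjusted p = 6.2e-06). Grin3a, whose product binds glycine and lowers calcium flow, had 0.895, 1.26 and 0.612 CPM in RPCs against 6.39 and 4.76 in aged cells (log2 -2.91 ± 0.77, adjusted p = 0.011; -2.67 and no longer past the threshold without aged replicate 1). Grin2c, another glutamate-binding subunit, went the other way. It had 15.4, 16.2 and 19.1 CPM in RPCs against 0.877 and 0.692 in aged cells (log2 4.09 ± 1.24, adjusted p = 0.021). That call was lost when aged replicate 1 or 2 or RPC replicate 1 or 3 was left out, with a log2 change of 3.93 to 4.28, and stood at an adjusted p of 8.9e-06 without the young libraries. Grin1, the subunit that every NMDA receptor needs, had 0.275, 0.452 and 0.961 CPM in RPCs against 1.67 and 4.82 in aged cells, groups that did not overlap and did not pass (log2 -2.84 ± 1.36, adjusted p = 0.11). The 7 genes summed to 17.9 to 23.2 CPM in RPCs and to 72.0 and 75.1 CPM in aged cells.

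Among kainate receptor genes, Grik3 (chr4:125490259-125714173, plus strand), a pore-forming subunit, had 0.138, 0.181 and 0 CPM in RPCs, 4 counts in all, against 72.4 and 122 CPM in aged cells. No RPC library came near the aged ones, and the log2 change of -10.03 ± 0.59 (adjusted p = 3.9e-06) kept its call under every alternative run for it. Grik5, a high-affinity subunit that needs a pore-forming partner, had 117, 139 and 121 CPM in RPCs against 98.0 and 93.8 in aged cells and did not pass (log2 0.07 ± 0.13, adjusted p = 0.68). Grik1 and Grik4 fell and Grik2 did not pass. Grik1 had 1.17, 2.17 and 0.874 CPM in RPCs against 9.40 and 14.1 in aged cells (log2 -3.39 ± 1.21, adjusted p = 0.04), a call lost without any 1 of the NMDA, aged or RPC libraries (log2 -3.79 to -3.07). Grik4 had 7.09, 6.23 and 5.24 CPM in RPCs against 13.2 and 18.8 in aged cells (log2 -1.68 ± 0.52, adjusted p = 0.023), a call lost without aged replicate 2 or RPC replicate 2 or 3 (log2 -1.66 to -1.41). Grik2 had 14.8, 13.3 and 14.5 CPM in RPCs against 0.521 and 3.10 in aged cells, higher in every RPC library (log2 2.65 ± 1.31, adjusted p = 0.12). It was called higher without the young libraries (adjusted p = 0.0038). The 5 genes summed to 141 to 161 CPM in RPCs and to 193 and 252 CPM in aged cells.

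The delta receptor genes encode proteins that bind cerebellins at synapses of the cerebellum and open to no known transmitter in the usual way. Grid1 had 2.62, 2.62 and 2.45 CPM in RPCs against 25.6 and 29.2 in aged cells (log2 -3.73 ± 1.23, adjusted p = 0.029). Its groups lay apart, yet the call was lost without NMDA replicate 3 or without any 1 of the aged or RPC libraries (log2 -3.82 to -3.64), and stood at an adjusted p of 4e-07 without the young libraries. Of the AMPA receptor genes, which carry fast excitation, Gria4 alone passed. It had 35.7, 29.2 and 40.5 CPM in RPCs against 82.4 and 82.8 in aged cells (log2 -1.55 ± 0.29, adjusted p = 0.0018). Gria1 and Gria2 had overlapping groups, and Gria3 lay at 2.36 to 3.61 CPM in RPCs and at 4.22 and 5.93 in aged cells without passing (adjusted p = 0.51).

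Metabotropic glutamate receptors couple to G proteins and fall into 3 groups by sequence and signalling. Grm5, of the group that signals through phospholipase C, was lower in RPCs. It had 0, 0 and 0.0874 CPM in RPCs against 2.36 and 3.34 in aged cells, a ratio of 0.00955 (95% interval 0.000241 to 0.0539 for counting error only). Grm2, an inhibitory receptor found on neuron terminals, had 22, 12.1 and 17.9 CPM in RPCs against 0 and 0.151 in aged cells (log2 7.45 ± 1.18, adjusted p = 0.0011). Grm4 rose as well, with 2.00, 2.44 and 2.97 CPM in RPCs against 0.329 and 0.452 in aged cells. Grm6, the receptor by which ON bipolar cells sense glutamate from photoreceptors, had no count in RPCs against 4.17 and 5.87 CPM in aged cells, at least 61.5-fold lower in RPCs. Grm7 had 7.16, 9.22 and 7.52 CPM in RPCs against 19.8 and 18.2 in aged cells (log2 -1.58 ± 0.23, adjusted p = 0.00048). Grm8 had 0.689, 0.904 and 1.4 CPM in RPCs against 3.73 and 4.25 in aged cells (log2 -2.32 ± 0.69, adjusted p = 0.019), a call lost without either aged library or RPC replicate 1 or 2 (log2 -2.40 to -2.11).

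Among the GABA-A genes, which supply the subunits of the main fast inhibitory receptor, 3 rose and 3 fell in RPCs, and 7 of the 13 tested did not pass. Gabra3, an alpha subunit on the X chromosome, had 26.1, 25.1 and 27.5 CPM in RPCs against 0.301 and 0.783 in aged cells (log2 5.27 ± 0.68, adjusted p = 0.00035). Gabrp, the pi subunit known from the uterus and other tissues outside the brain, had 6.89, 15.4 and 10.3 CPM in RPCs and no count in any NMDA, aged or young library. That is at least 243-fold higher in RPCs than in aged cells. Gabra2 rose too, with 23 counts over the RPC libraries against 2 over the aged ones. Gabrb1 (chr5:71657921-72149572, plus strand), a beta subunit, had 0.0689, 0.181 and 0 CPM in RPCs, 3 counts in all, against 19.4 and 25 CPM in aged cells, a ratio of 0.00368 (95% interval 0.000757 to 0.0108 for counting error only). Gabrb1 and Gabra4 are annotated with overlapping starts over 388 bp, so reads there may be assigned to either. Gabrd had no count in RPCs, at least 9.21-fold lower than in aged cells, a call lost without aged replicate 2 (fitted log2 -4.88).

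The GABA-rho genes, whose products form the slow GABA receptors of bipolar cells, and most of the glycine receptor genes were low in RPCs. The GABA-rho genes summed to 0.632 to 0.961 CPM in RPCs against 10.9 and 11.2 in aged cells, and all 3 fell. Glrb, the beta subunit that anchors glycine receptors to the scaffold gephyrin, had 7.09, 8.31 and 5.77 CPM in RPCs against 137 CPM in both aged libraries (log2 -4.60 ± 0.17, adjusted p = 1.3e-07). Glra3 fell, with 2 counts over the RPC libraries, and Glra2 did not pass. Glra1 had none there, at least 33.8-fold lower than in aged cells, a call lost without aged replicate 2 (fitted log2 -8.0). Photoreceptor markers and most bipolar cell markers fell alongside, but not all lists of retinal neuron markers did. Of 10 tested amacrine cell markers 2 were higher and 1 lower in RPCs, and of 3 tested horizontal cell markers 1 was higher and 1 lower. Ganglion cell markers are given further on. The summed level of 16 photoreceptor markers was 30.2 to 39.2 CPM in RPCs against 9190 and 6040 CPM in aged cells, and all 16 were lower in RPCs. It was 7920 to 12800 CPM in NMDA cells and 15600 and 10500 CPM in young cells, so the sorted Müller libraries held photoreceptor transcripts as well. Of 11 bipolar cell markers, 7 were lower and 2 higher in RPCs, with a sum of 161 to 190 CPM in RPCs against 240 and 254 CPM in aged cells. The part of such cells in the levels of Grm6, the GABA-rho genes and the glycine receptor genes was not tested.

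Neuronal nicotinic genes had the largest gain in summed level of the 10 families. The 11 neuronal genes summed to 309 to 377 CPM in RPCs against 14.9 and 23.3 CPM in aged cells. Chrna3 (chr9:55010117-55026562, minus strand), an alpha subunit best known from autonomic ganglia, had 155, 130 and 137 CPM in RPCs against 0.0274 and 0.0301 in aged cells, where 1 count was found in each library. The ratio was 4950 (95% interval 1370 to 40900 for counting error only). Chrnb4, its usual partner and its neighbour on chromosome 9 (chr9:55028154-55048953), had 38.5, 42.4 and 39.8 CPM in RPCs against 1.84 and 1.69 in aged cells (log2 4.19 ± 0.28, adjusted p = 8.7e-06). Chrna5, the accessory subunit of the same cluster, had 6.61, 5.06 and 5.94 CPM in RPCs against 0.959 and 0.301 in aged cells (log2 2.89 ± 0.76, adjusted p = 0.013; 2.28 and not past the threshold without aged replicate 2). Chrna3 and Chrna5 overlap over 1304 bp in the annotation, and since strand use in counting is not given, part of the Chrna5 reads could stem from Chrna3.

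Chrna4 (chr2:181022311-181043579), which with Chrnb2 forms the most common nicotinic receptor of the brain, had 134, 104 and 117 CPM in RPCs against 1.81 and 2.50 in aged cells (log2 5.46 ± 0.58, adjusted p = 5.9e-05). Chrnb2 had 36.8, 23.4 and 30.3 CPM in RPCs against 6.63 and 9.76 in aged cells (log2 1.57 ± 0.52, adjusted p = 0.03), a call lost without either aged library or RPC replicate 1 or 3 (log2 1.32 to 1.87). Chrna2, Chrna6 and Chrnb3, the last of which joins Chrna6 in ganglion cell receptors, were lower in RPCs, with 2, 3 and 6 counts over the RPC libraries. The muscle-type gene Chrnb1 had 1.31, 2.53 and 1.49 CPM in RPCs against 6.85 and 6.47 in aged cells (log2 -2.24 ± 0.37, adjusted p = 0.00087). Chrna1, Chrnd, Chrne and Chrng, the other muscle-type subunits, lay at or under 0.391 CPM in every library.

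Markers of early neurons and ganglion cells were higher in RPCs, as the genes that rose were. Of 12 early neuron markers 11 were higher and none lower, and of 10 tested ganglion cell markers 6 were higher and 2 lower. In RPC replicates 1, 2 and 3 the summed level of 11 ganglion cell markers was 588, 319 and 521 CPM, against 113 and 108 CPM in aged cells, and the ganglion cell gene Pou4f2 stood at 159, 83.0 and 135 CPM, against 0 and 0.0301 CPM. RPC replicate 2 was lowest in both. It was also the lowest RPC library for Chrna3, Chrna4, Chrna5, Chrnb2, Gabra3 and Grm2, but the highest for Chrnb4 and Gabrp. For Gabra3 the RPC libraries lay close together, at 26.1, 25.1 and 27.5 CPM. Grin2c, Grm4 and Gabra2, which also rose, were lowest in RPC replicate 1, at 15.4, 2.00 and 0.413 CPM. The part of early neurons in these gains was not tested.

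**Figure D3:**
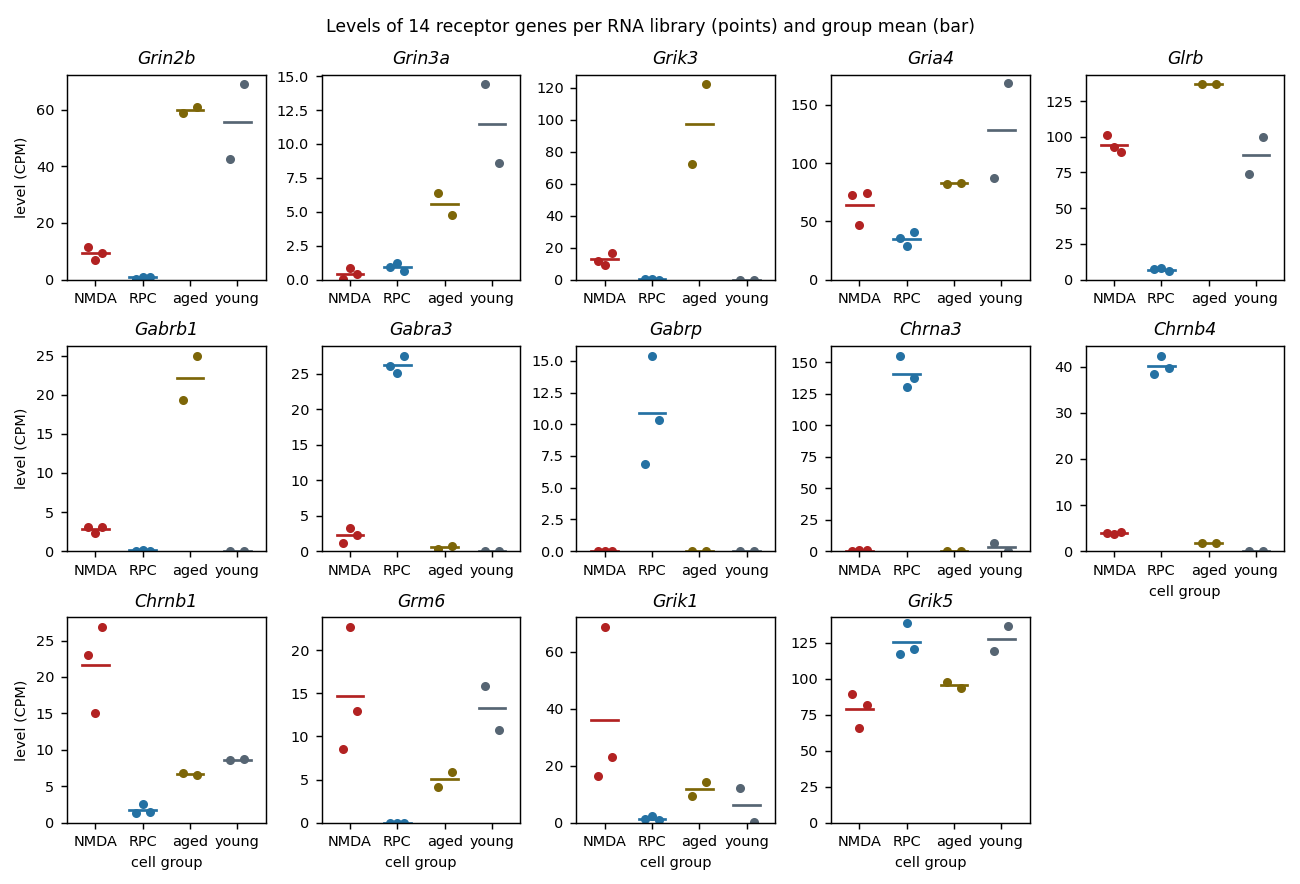
Level in CPM of 14 receptor genes in each RNA library (points), with the group mean as a bar, for NMDA, RPC, aged and young cells. Grin2b and Grin3a are low in NMDA cells and RPCs, Grik3 and Gabrb1 are highest in aged cells, and Chrna3, Chrnb4, Gabra3 and Gabrp are highest in RPCs.

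Against young Müller cells, RPCs had 16 receptor genes higher and 16 lower of 55, where 60.8% of all genes were called, 35.9% higher and 24.9% lower. The receptor share of 58.2% was near that background. Of the 19 receptor genes with a count in both young libraries, a set that leaves out genes low in young cells, 1 was higher and 14 lower, where 65.6% of all genes with such counts were called, 29.9% higher and 35.7% lower. Grin2b fell here too, to a mean of 0.750 ± 0.471 CPM in RPCs against 55.7 ± 18.7 CPM in young cells (SD, log2 -6.38 ± 0.50, adjusted p = 9.2e-06). So did Glrb (log2 -3.75 ± 0.17, adjusted p = 4.4e-07). Grik3 and Gabrb1 gave no difference to measure, since they had at most 4 counts over the RPC libraries and none in young cells. The comparisons of RPCs with aged and with young cells share the RPC libraries and are not independent.

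After NMDA injection the NMDA-type receptor genes Grin2b and Grin3a were lower than in either uninjected group. Grin2b had 11.4, 6.90 and 9.41 CPM in NMDA cells, against 58.9 and 61.0 CPM in aged and 42.5 and 68.9 CPM in young cells. All 3 NMDA libraries lay below all 4 others, with a log2 change of -2.78 ± 0.40 against aged (adjusted p = 0.0024) and -2.48 ± 0.40 against young cells (adjusted p = 0.0016). Both calls held when any 1 library was left out, with a log2 change of -2.95 to -2.61 against aged and -2.76 to -2.11 against young cells. Grin3a had 0.0630, 0.842 and 0.445 CPM in NMDA cells, against 6.39 and 4.76 CPM in aged and 14.4 and 8.57 CPM in young cells, again without overlap. Its log2 change was -3.68 ± 0.80 against aged (adjusted p = 0.013; lost without NMDA replicate 3 or either aged library, -3.88 to -3.44) and -4.54 ± 0.82 against young cells (adjusted p = 0.0026). The 7 NMDA-type genes summed to 19.6 to 20.2 CPM in NMDA cells, against 72.0 and 75.1 in aged and 71.4 and 79.3 CPM in young cells. Of the 6 tested, only Grin2b and Grin3a were called against aged or young cells. Grin1 had 4.29, 9.82 and 6.34 CPM in NMDA cells, against 1.67 and 4.82 in aged and 6.31 and 0 CPM in young cells, and passed in neither contrast.

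Against aged cells, a comparison added after seeing the data, 2 receptor genes were higher in NMDA cells, 7 were lower and 46 of 55 did not pass. The count of 9 called became 23 with young replicate 1 or 2 left out, 4 without NMDA replicate 3, and 3 or 2 without aged replicate 1 or 2. All genes gave 20.3% called, 10.5% higher and 9.80% lower, and the receptor share of 16.4% was near it. Grik3 had 11.9, 9.31 and 16.5 CPM in NMDA cells against 72.4 and 122 CPM in aged cells (log2 -3.03 ± 0.39, adjusted p = 0.0021; -2.61 and not past the threshold without aged replicate 2). Gabrb1 had 3.09, 2.36 and 3.12 CPM in NMDA cells against 19.4 and 25 in aged cells (log2 -3.04 ± 0.56, adjusted p = 0.0091; lost without either aged library, -3.20 and -2.84). For both genes NMDA cells lay between aged cells and RPCs. Glrb, at 101, 93.1 and 89.5 CPM in NMDA cells against 137 in both aged libraries, fell by 0.62 on the log2 scale (± 0.15, adjusted p = 0.023; lost without NMDA replicate 2 or 3 or either aged library, -0.63 to -0.57). Gabre, the epsilon subunit, had 1.20, 0.337 and 0.334 CPM in NMDA cells against 2.47 and 4.22 in aged cells (log2 -2.51 ± 0.70, adjusted p = 0.042). It lost that call without NMDA replicate 2 or 3 or any 1 of the aged or RPC libraries (log2 -2.83 to -2.07).

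Chrnb1 was the gene of these families that rose against both groups with counts in every library. It had 23.0, 15.1 and 26.9 CPM in NMDA cells, against 6.85 and 6.47 CPM in aged and 8.62 and 8.67 CPM in young cells. Every NMDA library was above every aged and young one, with a log2 change of 1.62 ± 0.38 against aged (adjusted p = 0.018; lost without NMDA replicate 1 or 3 or either aged library, 1.44 to 1.67) and 1.43 ± 0.38 against young cells (adjusted p = 0.014; lost without NMDA replicate 3, 1.25). The summed level of 6 muscle markers was at most 1.45 CPM in NMDA libraries and 0.904 CPM in aged libraries, and 0 in young libraries. Chrnb4 had 3.91, 3.65 and 4.06 CPM in NMDA cells against 1.84 and 1.69 in aged cells (log2 1.05 ± 0.25, adjusted p = 0.023), a narrow spread whose call was lost without NMDA replicate 3, either aged library or any 1 RPC library (0.99 to 1.12). Without the young libraries, 13 of 56 receptor genes were higher and 11 lower in NMDA than in aged cells, where 44.2% of all genes were called, 23.9% higher and 20.4% lower. The 4 with the smallest adjusted p were Gabrb1, Grik3, Grid1 and Grin2b, all lower in NMDA cells, at an adjusted p of 0.00014 to 0.00028.

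Against young cells, 21 receptor genes were higher in NMDA cells and 4 lower, where all genes gave 44.9% called, 30.6% higher and 14.3% lower. The receptor share called was 45.5%, at the background. Of the 21, 17 were at 0 in both young libraries. Among the 19 receptor genes with a count in both young libraries, 3 were higher and 4 lower, where 43.6% of all genes with such counts were called, 22.1% higher and 21.5% lower. Chrnb1 was 1 of the 3. The 4 lower were Grin2b, Grin3a, Gria4 and Grik5. Gria4 had 72.3, 46.6 and 74.1 CPM in NMDA cells against 87.2 and 169 in young cells (log2 -0.88 ± 0.29, adjusted p = 0.036), a call lost without young replicate 2 (-0.34), NMDA replicate 1 or 2, either aged library or RPC replicate 1. Grik5 had 89.6, 66.1 and 81.9 CPM in NMDA cells against 119 and 137 in young cells (log2 -0.58 ± 0.13, adjusted p = 0.0079).

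**Figure D4:**
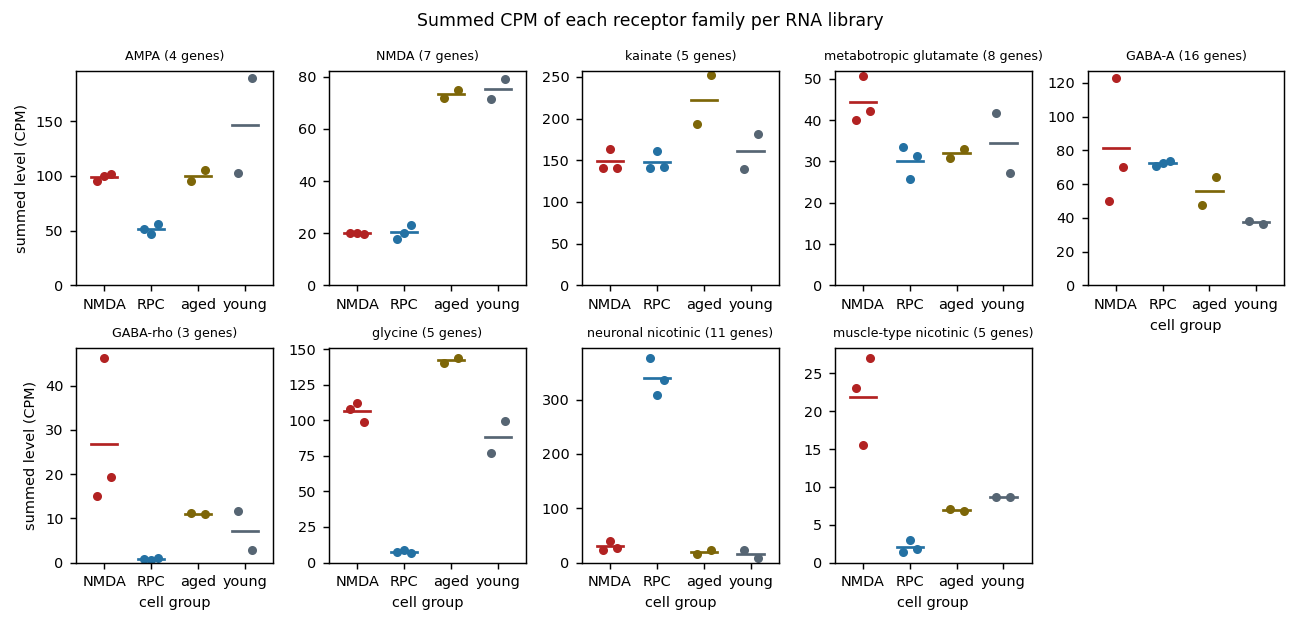
Summed CPM of 9 receptor families in each RNA library (points) with the group mean (bar), for NMDA, RPC, aged and young cells. NMDA-type genes sum to 19.6 to 20.2 CPM in NMDA cells, 17.9 to 23.2 CPM in RPCs and 71.4 to 79.3 CPM in aged and young cells. The 2 low sums differ in make-up, with Grin2c at 15.4 to 19.1 CPM in RPCs and 0.224 to 0.567 CPM in NMDA cells. Neuronal nicotinic genes stand at 309 to 377 CPM in RPCs.

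NMDA replicate 2 stood apart from its group for many receptors. Among 40 receptor genes averaging 1 CPM or more in NMDA cells, 25 were highest in that library, and 17 were at least 1.5 times both other NMDA libraries, among them all 3 GABA-rho genes, Glra1, Grik1 and Grm6. The same counts were not made over all genes, so they do not set receptor genes apart from others. Grik1 had 16.4, 68.6 and 22.9 CPM in NMDA cells, against 9.40 and 14.1 in aged and 12 and 0.0985 CPM in young cells. Grm6 had 8.51, 22.7 and 13.0 CPM in NMDA cells, against 4.17 and 5.87 in aged and 15.9 and 10.7 CPM in young cells. Neither passed against aged or young cells. In NMDA replicates 1, 2 and 3 the summed level of 11 bipolar cell markers was 267, 453 and 313 CPM, that of 14 microglia and macrophage markers 474, 4580 and 965 CPM, that of 5 lens genes 38.3, 1090 and 57.4 CPM, and that of Müller glia markers 25700, 20200 and 26200 CPM. The ON bipolar channel gene Trpm1 stood at 57.9, 131 and 64.9 CPM and the bipolar gene Scgn at 5.80, 24.5 and 8.01 CPM. Lrit3, of the same list, was lowest in replicate 2, at 42.5, 32.1 and 46.2 CPM. The summed level of amacrine cell markers was also lowest there, at 481, 362 and 449 CPM. That of photoreceptor markers was highest in replicate 3, at 7920, 11400 and 12800 CPM. The part of these cells in the receptor levels was not tested. Without NMDA replicate 2, 20 receptor genes were higher and 4 lower than in young cells, and 2 were higher and 5 lower than in aged cells.

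Aged Müller cells differed from young ones mainly in genes that the young libraries listed at 0. Of 55 receptor genes 19 were higher in aged cells and 1 lower, where 27.0% of all genes were called, 21.1% higher and 5.85% lower. The receptor share was 36.4%, and 31 genes were called in place of 20 without young replicate 2. Of the 19 genes with a count in both young libraries, 2 were called, both higher, where 22.1% of all genes with such counts were called, 13.5% higher and 8.57% lower. Glrb was 1 of the 2. Glrb had 137 CPM in both aged libraries against 74.1 and 99.8 CPM in young cells (log2 0.85 ± 0.17, adjusted p = 0.0074). The gene called lower, Chrna3, had 0.0274 and 0.0301 CPM in aged cells against 6.51 and 0 CPM in young cells. It rests on young replicate 1, without which the fitted log2 change was 2.50, and it also missed the threshold without aged replicate 1 or 2 (-6.36 and -6.46).

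Grik3 and Gabrb1 had the most counts in aged cells among genes at 0 in young cells. Grik3 held 2642 and 4050 counts in the aged libraries and 189, 166 and 297 in the NMDA libraries, and none in either young library. With 3 counts allowed over the young group, it was at least 811-fold higher in aged cells and at least 107-fold higher in NMDA cells than in young cells. Gabrb1 held 706 and 830 counts in aged cells and 49, 42 and 56 in NMDA cells, at least 186-fold and 24.0-fold higher than in young cells. These bounds cover counting error and hold only if no counts were removed before deposit. In RRBS libraries, at the runs of CpGs in Grik3 given further on, methylation reached at most 14.3% in aged cells and 12.2% in young cells.

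Of the 11 receptor genes that did not pass the expression filter, Chrna9 and Gabra6 had no count in any library. The other 9, Chrna1, Chrna10, Chrnd, Chrne, Chrng, Gabra5, Gabrg1, Glra4 and Grin2a, were at or under 0.787 CPM in every library. Gabra5 had 0.482, 0.632 and 0.787 CPM in RPCs against 0 in both aged libraries.

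Genes that work with the receptors moved in both directions. Of 44 tested receptor partners (scaffolds, auxiliary subunits and GABA-B receptors), 8 were higher and 17 lower in RPCs than in aged cells, 56.8% against 55.4% of all genes, and 4 were higher and 11 lower in NMDA than in aged cells, 34.1% against 20.3% of all genes. Shisa9, an AMPA receptor auxiliary subunit, averaged 0.702 ± 0.166 CPM in RPCs against 392 ± 4.49 CPM in aged cells (SD, log2 -9.43 ± 0.27, adjusted p = 4.3e-08). Shisa7, a GABA-A receptor auxiliary subunit, averaged 6.11 ± 1.18 CPM in NMDA cells against 54.5 ± 11.1 in aged and 50.7 ± 8.70 in young cells, and fell against both (log2 -3.24 ± 0.24 and -2.95 ± 0.24, adjusted p = 9.1e-05 and 4.2e-05). Gphn, the gephyrin gene, averaged 43.9 ± 1.45 CPM in NMDA cells and 44.0 ± 1.11 in aged cells against 7.63 ± 1.31 CPM in young cells, higher in both (adjusted p = 0.00015 and 0.00025). Of 23 genes of transmitter synthesis and transport, 2 were higher and 13 lower in RPCs than in aged cells (65.2%), and 7 were lower in NMDA than in aged cells (30.4%). Slc1a2, a glutamate transporter, averaged 681 ± 81.0 CPM in NMDA cells and 3.61 ± 0.257 CPM in RPCs against 2890 ± 314 CPM in aged cells and 286 ± 33.9 CPM in young cells. Of 18 other transmitter receptors, 1 was higher and 10 lower in RPCs than in aged cells (61.1%), with Adora1, an adenosine receptor, at 0.174 ± 0.243 CPM in RPCs against 218 ± 5.04 CPM in aged cells.

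DNA methylation at the receptor genes' starts was low in every group. A start was measured where at least 5 CpG positions within 1000 bp had 10 or more reads in all 12 RRBS libraries, which held for 24 of the 66 genes (10087 genes in all), with 6 receptor genes on the X chromosome left out. For 9 of the 24 the annotation gave no strand and the CpG-rich end was taken. Apart from Grm6, levels were 0% to 4.22% in NMDA cells, 0.197% to 7.55% in RPCs, 0% to 2.43% in aged cells and 1.49% to 9.18% in young cells. Grm6 stood at 12.9%, 8.95% and 11.9% in NMDA cells, 12%, 13.9% and 7.44% in RPCs, 5.67%, 7.31% and 8.24% in aged cells, and 16.0%, 18.5% and 11.7% in young cells.

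A call needed an adjusted p under 0.05 in a moderated quasi-binomial test and a difference of at least 10 percentage points. None of the 24 starts was called in NMDA, aged or RPC against young cells, where 1.46%, 0.714% and 3.09% of all starts were called. For 23 of the 24 the level was under 10% in every young library, so a fall of 10 points could not have been called there, and the count of 0 says nothing about smaller falls. With no minimum difference, 21 starts in NMDA, 23 in aged and 17 in RPC libraries had an unadjusted p under 0.05 against young cells, and as many had an adjusted p under 0.05, each of them lower than in young cells. Under the same rule 78.2%, 85.3% and 68.3% of all starts passed, so the receptor genes shared a difference found at most starts. The median difference from young cells was -2.8 points in NMDA, -3.4 in aged and -2.5 in RPC libraries over the receptor genes, and -2.5, -2.9 and -1.9 points over all starts. With 3 libraries in each group an exact permutation test of a single start cannot go below p = 0.10. The starts of Grik3 and Gabrb1 were at most 5.27% and 5.66% methylated in any library. Gabrb1 and Gabra4 share their measured positions and count as 2 of the 24.

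Single CpG positions within the genes' spans and 1000 bp around them were examined as an addition made after seeing the data. There were 2285 such positions in 52 receptor genes, of which 2232 were tested. In RPCs against aged cells 113 were higher and 30 lower, 6.41% of those tested, where 6.66% of all positions were called, 4.91% higher and 1.74% lower. In RPCs against young cells 102 were higher and 48 lower, 6.72% of those tested, where 7.47% of all were called, 4.78% higher and 2.68% lower. In NMDA against young cells 57 were higher and 26 lower, 3.72% of those tested, where 3.01% of all were called, 1.99% higher and 1.02% lower. In aged against young cells 11 were higher and 94 lower, 4.7% of those tested, where 4.0% of all were called, 0.440% higher and 3.56% lower. The shares in receptor genes were near the background in all 4. Called positions dropped to 28, 20 and 22 for NMDA against young cells without NMDA replicate 1, 2 or 3, and to 41 and 45 for aged against young cells without aged replicate 1 or 3.

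Within that background some called positions lay together. Runs of at least 5 called positions with gaps of at most 500 bp were found in 5 genes for RPCs against aged cells, 7 runs in all and each higher in RPCs, and are described here without a test because they were picked by their values. Runs were looked for in receptor genes only, so how common they are in other genes is not known. Positions are on build GRCm38, and exons and introns were not looked up. In Grin2b, chr6:135931546-135931663 was 87.9%, 85.5% and 92.2% methylated in RPCs, 47.0%, 54.3% and 54.9% in NMDA cells, 16.7%, 20.5% and 13.5% in aged cells, and 13.2%, 16.1% and 21.1% in young cells. In Grid1, chr14:34953755-34953978 stood at 94.6% to 94.9% in RPCs, 38.6% to 63.4% in NMDA cells, 7.30% to 17.9% in aged cells and 9.08% to 11.5% in young cells. In Grik2, chr10:49704509-49704671 stood at 88.8% to 99.1% in RPCs, 22.6% to 64.8% in NMDA cells, 0.187% to 12.1% in aged cells and 3.82% to 4.28% in young cells. NMDA cells lay between RPCs and the uninjected Müller cells in these 3 runs, with every NMDA library above every aged and young one.

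Grik3 held 3 runs. At chr4:125515766-125516089 the means were 21.5% in NMDA cells, 56.0% in RPCs, 8.65% in aged and 9.94% in young cells. At chr4:125645136-125645368 they were 25.4% in NMDA cells, 86.0% in RPCs, 4.09% in aged and 4.95% in young cells. At chr4:125706035-125706095, near the end of the gene, they were 31.6% in NMDA cells, 34.2% in RPCs, 6.57% in aged and 6.05% in young cells. In Grin3b, chr10:79972961-79973179, 2.56 kb past the start of the span, stood at 62.9% to 69.4% in RPCs, 15.4% to 30.0% in NMDA cells, 1.24% to 5.72% in aged cells and 3.47% to 6.38% in young cells. In RNA, 4 of the 5 genes had fewer CPM in every RPC and every NMDA library than in either aged one. Grin2b and Grik3 passed the test in both contrasts and Grid1 in RPCs, with 8.82, 10.8 and 7.57 CPM in NMDA cells against 25.6 and 29.2 CPM in aged cells. Grin3b, which passed in neither, had 0.630, 0 and 0.946 CPM in NMDA cells and 0.0689, 0.181 and 0.524 CPM in RPCs against 1.48 and 1.57 CPM in aged cells. Grik2 had more CPM in every RPC library than in either aged one without passing. Against young cells, only Grin2b of the 5 genes had fewer CPM in every RPC and every NMDA library. Grin2b had 42.5 and 68.9 CPM in young cells and Grid1 had 0 and 9.85 CPM. Grik3 and Grin3b were at 0 in both young libraries. Whether methylation at the runs and RNA are linked was not tested. One run was lower in RPCs than in young cells, in Grm4 at chr17:27502320-27502376, with means of 30.0% ± 0.681 in RPCs and 50.5% ± 2.46 in young cells (SD, n = 3). Early neuron and ganglion cell markers were high in the RNA of RPCs and microglia markers in that of NMDA cells, and the part of such cells in these methylation levels was not tested.

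**Figure D5:**
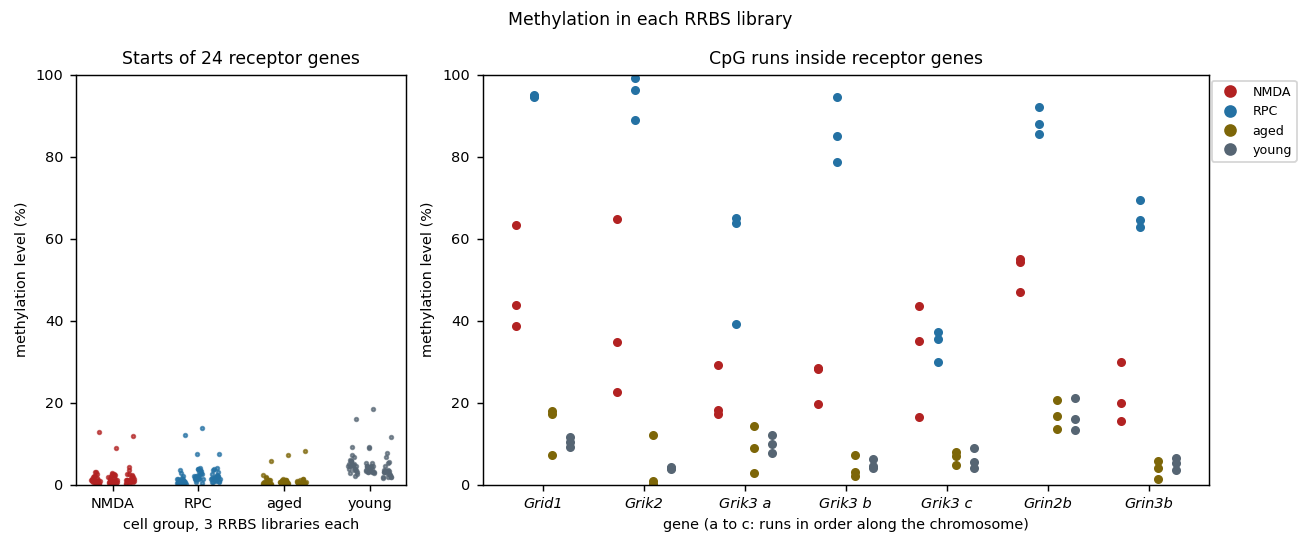
Methylation in percent in each RRBS library, at the starts of the 24 measured receptor genes (left, 1 point per gene and library) and at the 7 CpG runs found for RPCs against aged cells (right, 1 point per library). Starts are at or under 18.5% in all groups, and in the runs RPCs lie above aged and young cells, with NMDA cells between in 6 of 7 and overlapping RPCs in the third Grik3 run.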

How the data were processed

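RNA was measured in 10 libraries and methylation in 12. The tools named in the submitters' processing notes, with no role given, are methylKit 1.4.0, Bismark 0.16.3, HISAT2 2.0.4 and Trim Galore 0.4.3, and the builds are GRCm38 and mm10. Not given in the sources used here are how reads were counted, with which strand setting, and whether low counts were removed. The authors deposited read counts for each gene. For RRBS they deposited, per the file headers, the percent of methylated reads and the coverage of each CpG position and strand, listed from 10 reads up, so coverage below that is not seen. Per the labels, replicates are biological for RRBS and for aged and young RNA, while NMDA and RPC RNA libraries are called replicates with no more said, so their spread may be technical.

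Counts were fitted with edgeR 4.0.16 (R 4.3.3) over all 10 libraries, with TMM scaling, filterByExpr, quasi-likelihood tests and Benjamini-Hochberg adjustment over 18931 genes (6 residual degrees of freedom, common biological coefficient of variation 0.411). Folds against a group at 0 use 3 counts over the group, and 95% intervals are exact. Methylated reads, rebuilt from percent and coverage, were tested by a quasi-binomial model with overdispersion moderated by limma 3.58.1 over 10087 starts or 718061 positions, and 759352 positions were shared by all libraries, at a median coverage of 52 to 109 reads. Both procedures were tested on simulated data. Positions and promoters are from RefSeq GRCm38.p6.

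The members, lists and tests were chosen with earlier results of these data known. Genes with a group mean of at least 5 CPM, and the 5 called members with the smallest adjusted p in each comparison, are given per library; others are by range and count. Alternatives were RLE and upper-quartile scaling, other filters, DESeq2 1.42.0, a block by replicate number, fits of only the groups compared, each library left out, members whose span contains another gene left out, and for RRBS other windows and coverage. The comparison of NMDA with aged cells, the fits without young libraries and the single positions were added after seeing the data. Some genes of these families enter the counts and sums but are not reported here.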

Additional observations from a re-analysis of the deposited data

How the results depend on the processing

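Over 91 results for single genes and 1539 alternative values, the direction and call were kept in 1404, the call was lost in 133 and the direction turned in 2, Chrna3 in aged against young cells (log2 2.50) and Gabrr1 in RPCs against young cells (log2 2.18), both without young replicate 1. With 1 library left out these ranged from -7.38 to 2.50 and from -8.37 to 2.18. With members whose span contains another gene left out, 34 receptor genes were tested. The count called was then 13 for NMDA against young, 10 for aged against young and 2 for NMDA against aged cells. For RPC against aged cells it was 20, with 10 higher and 10 lower, where the main fit had 11 higher and 26 lower of 55. Why the lower calls fell most was not tested. With members at 0 in a young library left out, the count called was 7 for NMDA, 2 for aged and 15 for RPC against young cells. The 2 groups alone gave 2 for aged against young and 14 for NMDA against aged cells, DESeq2 gave 16 for NMDA against aged cells, and the fit without both young libraries gave 24; the cause was not tested. Leaving out 1 library gave 23 to 37 for NMDA against young, 15 to 31 for aged against young, 26 to 39 for RPC against young, 28 to 47 for RPC against aged and 2 to 23 for NMDA against aged cells, the highest count in each without a young library. With the replicate number as a block the counts were 22 for NMDA against young, 16 for aged against young, 28 for RPC against young, 30 for RPC against aged and 4 for NMDA against aged cells. Deviations of same-numbered libraries correlated at -0.0571 to 0.0275 in RNA and -0.151 to 0.0883 in RRBS. These values give no sign that the numbers pair the samples. They cannot exclude it, since in a group of 2 libraries the deviations mirror each other. Called starts stayed at 0 except 1 for aged against young cells without young RRBS replicate 3. Called single positions were 39 for NMDA and 43 for aged against young cells with the 2 groups alone and 97 for RPC against young cells at 20 or more reads, and with 1 library left out 20 to 110 for NMDA against young, 41 to 123 for aged against young, 114 to 162 for RPC against young and 118 to 144 for RPC against aged cells. Library totals did not order the receptor genes counted, with 26 at 15202738 counts in young replicate 1 against 54 at 11067405 counts in RPC replicate 2, and why young libraries list so many at 0 was not tested.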
